A study of Mus musculus with 10 samples.

Results

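Genes of the interferon response and of MHC class I antigen presentation were examined in the prefrontal cortex of Arid1b+/- mice. The group held 9 genes, B2m, H2-D1, H2-K1, Stat2, Irf9, Ifit2, Ifitm3, Tap1 and Bst2, chosen by name, and all 9 were found among the 18216 genes of the expression table. The data were bulk RNA-Seq libraries from male C57BL/6N mice at postnatal day 10, 1 library per mouse, with 5 heterozygotes (HT1 to HT5) and 5 wild-type mice (WT1 to WT5). The HT mice carried 1 copy of Arid1b with a truncating change in exon 5, made by CRISPR/Cas9 and present in every cell of the body, and the WT mice, from the same kind of cross of heterozygous males with wild-type females, carried 2 intact copies. Values are normalised counts, which are estimated reads per gene divided by a size factor per library, and differences are log2 fold changes of HT over WT on the scale of log2(normalised count + 1). The question was whether any of these genes differed between the genotypes, and by how much relative to the spread between mice.

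Interferons bind receptors at the cell surface, and the receptor-bound kinases then activate STAT proteins. STAT2 and IRF9 are parts of the factor ISGF3, which binds a short DNA element, the interferon-stimulated response element (ISRE), near many antiviral genes. MHC class I molecules show peptides on the cell surface and consist of a heavy chain, such as those made by H2-K1 and H2-D1, and the light chain beta-2-microglobulin, made by B2m, loaded with peptides that the TAP transporter carries into the endoplasmic reticulum. In the brain, microglia and endothelial cells are rich sources of these transcripts, and neuronal MHC class I is known for its part in the refinement of developing synapses.

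None of the 9 genes passed the test across all genes between HT and WT mice. Of the 9, 0 had a limma adjusted p under 0.05, against 3 of 16781 genes tested (0.0179%). The range of values in HT overlapped that in WT for each of the 9, where 1.62% of all genes did not overlap. At an unadjusted p under 0.05 there was 1 gene, Stat2, which was lower in HT, against 9.23% of all genes, 4.71% higher and 4.52% lower. In mean level 7 of the 9 were higher in HT and 2, Stat2 and Irf9, were lower, against 48.8% of all genes higher, and the median log2 fold change of the 9 was 0.05 against -0.0035 over all genes. Without HT2 and HT5 together the count was 4 higher and 5 lower.

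A few facts of the libraries bear on these values. Arid1b itself was 1894 ± 86.6 in HT and 2842 ± 142 in WT (SD, 5 mice each), a log2 fold change of -0.59 (95% interval -0.69 to -0.48, limma adjusted p 9.96e-05), so each library matched its label. All 12 cortical excitatory neuron markers had values, as did the 11 striatum markers. The striatum markers summed to 7736 in HT5, 6810 in WT3 and 7157 in WT5 and to 15310 to 23765 in the other 7 mice. HT2 and HT5 had the highest sums of microglia and astrocyte markers. The 18 microglia markers summed to 21638 in HT2 and 21191 in HT5, against 14856 to 16979 in the other 8 mice, and the 12 astrocyte markers summed to 214983 and 204441, against 154488 to 195537. HT2 also had the lowest sum of the 12 neuron markers, 212335 against 248462 to 270773. In bulk tissue, fewer cells of a type and less RNA per cell cannot be told apart. Over all 10 mice 10 of 11 striatum markers were higher in HT, 0 at a limma unadjusted p under 0.05, with a median log2 fold change of 0.42. With HT2 and HT5 left out, as is done for several results below, 11 of 11 were higher, 7 at that p, with a median of 0.82, where 6.02% of all genes had such a p. The 9 genes summed to 4659 in HT5 and 4432 in HT2, and to less in every other mouse. Leaving out only these HT mice, and no WT mouse, lowers the HT mean of such genes by the choice of mice alone. Counts that turn over without them are descriptions and not tests. No litter, dissection or sequencing batch is given in the labels, so values within batches could not be had.

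**Figure D1:**
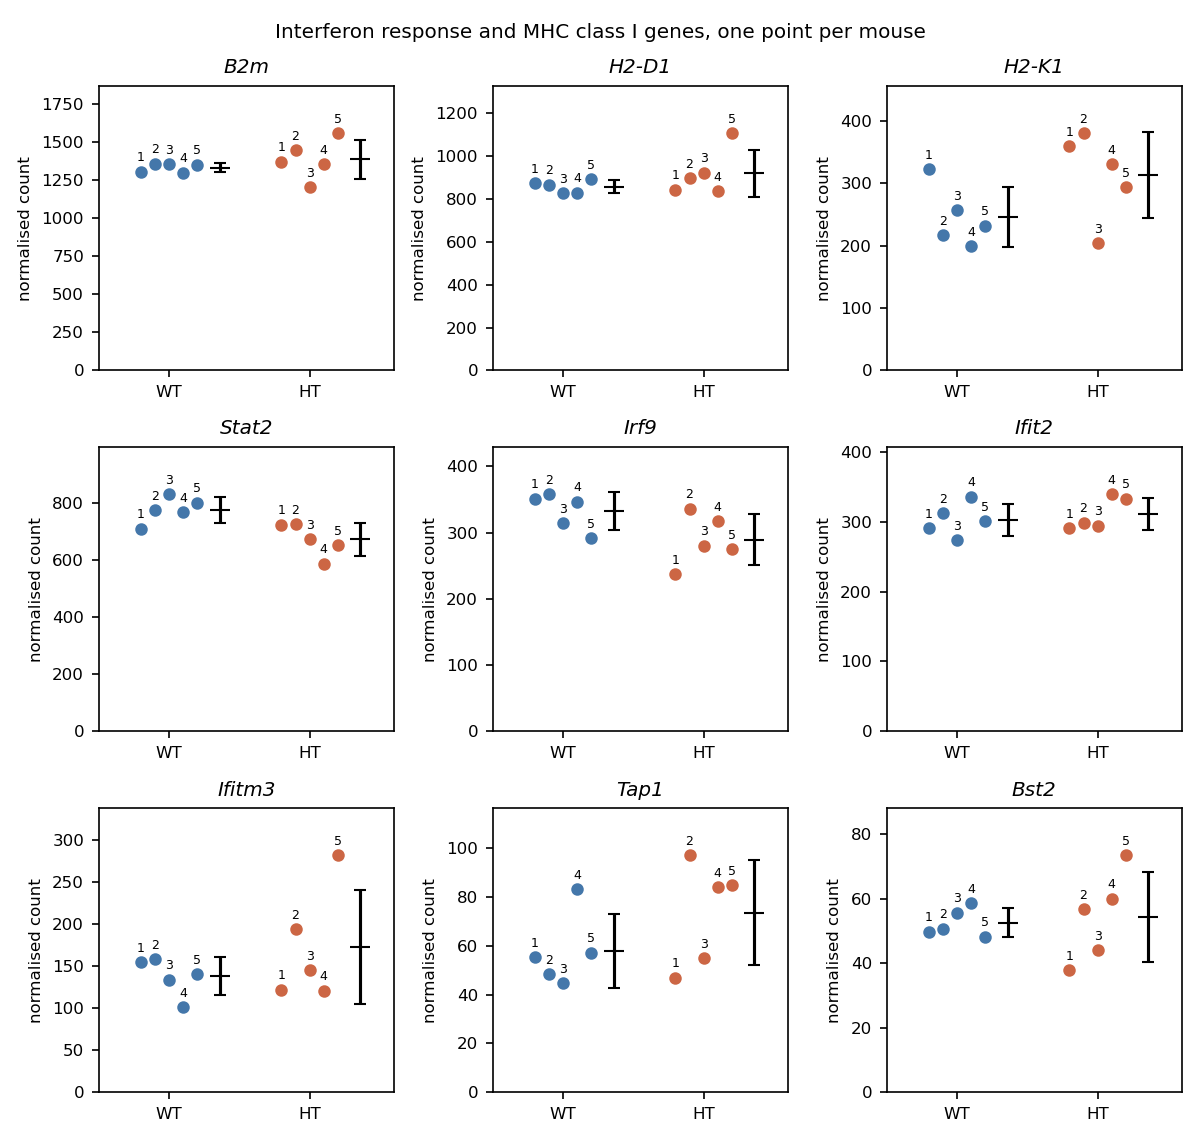
Normalised count of each of the 9 genes (y axis, from 0) in every mouse, with WT in blue and HT in orange; numbers are mouse numbers, and the black bars are the group mean ± SD (n = 5). In every panel the groups overlap, and HT5 is the highest point for B2m, H2-D1, Ifitm3 and Bst2.

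The 9 genes cover a wide range of levels, compared here as normalised counts per kilobase of annotated exon, averaged over the 10 mice. B2m was highest at 1581 per kilobase, followed by H2-D1 at 345, Ifitm3 at 229, Stat2 at 122.5, H2-K1 at 95.1, Ifit2 at 78.1, Bst2 at 59.3, Irf9 at 57.7 and Tap1 at 12.0. The ranges over the 10 mice of B2m and H2-D1 did not overlap, nor did those of Ifitm3 and Stat2 or those of Irf9 and Tap1. Each other pair of neighbours in this order overlapped. Per kilobase, the light chain B2m was present far above either heavy chain, and the transporter subunit Tap1 was the lowest of the 9. The exon length joins all annotated exons of a gene, 860 bases for B2m and 5476 for Tap1. The order therefore depends in part on the annotation.

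The start sites of the genes were searched for the element that ISGF3 binds. Windows of 250 bases before to 50 bases after each annotated start (RefSeq, GRCm38.p6) were available for all 9 genes, 12 windows in all. The spelling GAAANNGAAA, an ISRE core, occurred on either strand in 4 of the 9 genes, B2m, Stat2, Ifitm3 and Bst2, against 3.99% of 27025 genes with a window and 3.44% of 32851 windows. The members were chosen by name as interferon response and MHC class I genes, so more matches than over all genes were likely in advance. The 4 stretches are shown, and the capitals mark the matches. They start 139 bases before the start of B2m, 222 before that of Stat2 and 2 and 19 bases after that of Ifitm3, and 130 and 124 bases before that of Bst2, where the matches overlap each other.

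B2m, chr2:122147528-122147577, plus strand: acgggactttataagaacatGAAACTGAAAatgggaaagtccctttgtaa
Stat2, chr10:128270256-128270305, plus strand: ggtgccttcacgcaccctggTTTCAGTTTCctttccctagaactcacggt
Ifitm3, chr7:141010716-141010742, minus strand: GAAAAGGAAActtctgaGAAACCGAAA
Bst2, chr8:71537567-71537622, minus strand: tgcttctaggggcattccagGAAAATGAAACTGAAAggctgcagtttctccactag

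The spelling TTCNNNGAA, the element of STAT dimers known as GAS, occurred in 3 of the 9, Ifit2, Ifitm3 and Bst2, against 9.55% of genes, and in the last 2 it overlapped an ISRE match. A match is a string of letters and not a measured binding site. The absence of a match in H2-K1, H2-D1, Irf9 and Tap1 says only that these letters do not occur in these windows. Looser spellings of the ISRE were not searched, so these promoters may hold other forms of the element. Of the 4 genes with an ISRE match, Stat2 was lower in HT and the other 3 were higher, none past the threshold. B2m, Ifitm3 and Bst2 turned to -0.03, -0.08 and -0.17 without HT2 and HT5, so their directions were not stable.

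Both ISGF3 components of the group were lower in HT on average, and Stat2 had the largest difference of the 9 genes relative to its error. Stat2, the STAT protein particular to type I and type III interferon signalling (chromosome 10, 128270559 to 128292849, plus strand, GRCm38), had values of 725, 726, 675, 589 and 653 in HT1 to HT5 and of 710.4, 776, 831, 768 and 802 in WT1 to WT5. HT3, HT4 and HT5 lay below every WT mouse, and WT1 lay within the HT range. The HT mean was 674 ± 57.0 and the WT mean 778 ± 45.1 (SD, n = 5 each), so that HT stood at 86.6% of WT, with a log2 fold change of -0.21 (SE 0.07, 95% interval -0.36 to -0.06). The limma unadjusted p was 0.00883 and the adjusted p 0.477, and the unadjusted p by exact permutation of the mice (two-sided) was 0.0238, where the smallest possible is 0.00794. All 5 HT mice lay below the WT mean.

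Irf9, the DNA-binding partner in ISGF3 (chromosome 14, 55603571 to 55610030, plus strand), was 237.5, 336, 280.4, 317 and 275 in HT1 to HT5 and 351, 357.5, 314, 346.5 and 292 in WT1 to WT5. HT1, HT3 and HT5 lay below every WT mouse, while HT2 and HT4 lay among them. Means were 289 ± 38.5 in HT and 332 ± 28.1 in WT (SD, n = 5 each). The difference of -0.21 (SE 0.10) had a 95% interval from -0.42 to 0.01, with a limma unadjusted p of 0.0599 and an adjusted p of 0.55. Irf9 overlaps Rnf31 on the same strand, and 4.24% of the 31-base words of its transcripts occur in other genes.

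HT3 and HT5 lay below every WT mouse in both Stat2 and Irf9. Across the 10 mice, the deviations of Stat2 and Irf9 from their genotype means had a Pearson correlation of -0.41, given as a description.

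**Figure D2:**
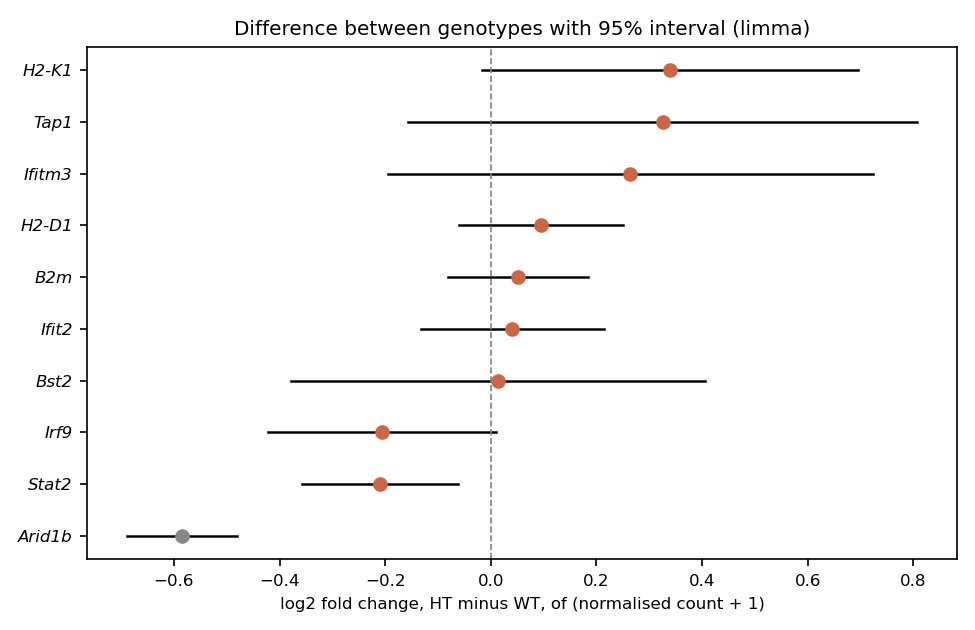
Log2 fold change, HT minus WT, of normalised count + 1 (x axis) for the 9 genes in orange and Arid1b in grey; lines are 95% intervals from limma and the dashed line marks 0. Stat2 is the only one of the 9 whose interval does not include 0, and all 9 lie to the right of Arid1b.

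The chains of the MHC class I molecule were close to WT levels for B2m and H2-D1 and less certain for H2-K1. B2m (chromosome 2, 122147686 to 122153083, plus strand) was 1371, 1446, 1202, 1355 and 1557 in HT1 to HT5 and 1304, 1357, 1355, 1298 and 1350 in WT1 to WT5. The WT mice were tightly grouped, with a coefficient of variation of 2.21%, and lay within the HT range, which had a coefficient of 9.4%. HT averaged 1386 ± 130.3 and WT 1333 ± 29.5 (SD, n = 5 each), a log2 fold change of 0.05 (95% interval -0.08 to 0.18, limma adjusted p 0.79). On the log2 scale this interval leaves room for B2m to be higher by at most 0.18 or lower by at most 0.08. Leaving out 1 mouse moved the value from 0.01 without HT5 to 0.10 without HT3 (limma unadjusted p 0.0765), and without HT2 and HT5 together it was -0.03.

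H2-D1, a classical heavy chain (chromosome 17, 35262730 to 35267499, plus strand), was 844, 897, 923, 837 and 1107 in HT1 to HT5 and 874, 867, 826.5, 830.5 and 894 in WT1 to WT5. HT5 was the highest by a wide margin, and HT1 and HT4 lay inside the WT range. Means were 922 ± 109.9 in HT and 859 ± 29.2 in WT (SD, n = 5 each), with a difference of 0.10 (SE 0.07, 95% interval -0.06 to 0.25, limma adjusted p 0.667). Leaving out HT5 brought the difference to 0.03.

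H2-K1, the other classical heavy chain (chromosome 17, 33996017 to 34000347, minus strand), was 359, 379.9, 204, 330.4 and 294 in HT1 to HT5 and 322, 217, 257, 199 and 232 in WT1 to WT5. In HT1, HT2 and HT4 it exceeded every WT mouse, HT5 lay below WT1, and HT3 was near the lowest WT mouse. The HT mean was 313 ± 69.2 and the WT mean 245.5 ± 47.9 (SD, n = 5 each). Its difference, 0.34 (SE 0.17), was close in size to that of Tap1, and its 95% interval ran from -0.02 to 0.695, with a limma unadjusted p of 0.0602, an adjusted p of 0.55 and an exact permutation p of 0.127. Leaving out HT3 gave 0.49 (limma unadjusted p 0.00325, adjusted p 0.382), and leaving out WT1 gave 0.44 (limma unadjusted p 0.0172). It was smaller without HT2, at 0.26 (limma unadjusted p 0.147), without WT4, at 0.27 (0.142), and without HT2 and HT5 together, at 0.26 (0.202).

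The heavy chain genes are close relatives whose transcripts share long stretches. Of the 31-base words of H2-K1 transcripts, 22.8% occur in other genes, 11.1% in H2-D1, and of those of H2-D1 26.7% occur elsewhere, 13.8% in H2-K1, so the level of each single copy is uncertain. Summed, H2-K1 and H2-D1 gave 1203, 1277, 1127, 1167 and 1401 in HT1 to HT5 and 1197, 1084, 1084, 1030 and 1126 in WT1 to WT5, or 1235 ± 108 against 1104 ± 62.1 (SD, n = 5 each). All 5 HT sums lay above the WT mean, 3 of them above every WT mouse, and no test was run on the sum. H2-K1 made up 18.1% to 29.8% of the pair in HT and 19.4% to 26.9% in WT. All 12 heavy chain genes of the H2 region in the table together came to 1704 ± 179.9 in HT and 1558 ± 68.7 in WT (SD, n = 5 each), with HT5 highest at 1973. Without HT2 and HT5 the HT mean was 1166 for the pair and 1588 for the 12 genes, above the WT means by 61.7 and 29.7, against 131 and 146 with all mice.

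**Figure D3:**
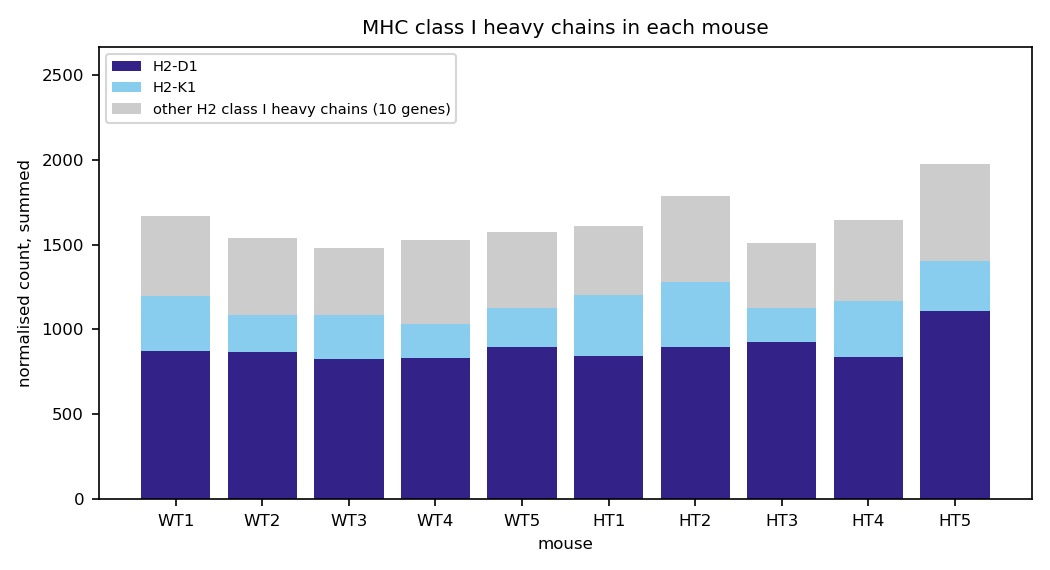
Summed normalised count of the MHC class I heavy chains of the H2 region (y axis, from 0) in each mouse, split into H2-D1, H2-K1 and the other 10 genes. The totals run from 1482 in WT3 to 1973 in HT5, and H2-D1 is the largest portion in every mouse.

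The classical pair is alike before the start sites too, and the stretch most alike is shown. Over the 240 bases in which the windows of the pair overlapped once aligned, 73.3% of letters were identical, and in the stretch of H2-K1 printed below 114 of 122 letters matched the window of H2-D1 (chr17:35262883-35263004, plus strand), with 47 in the longest unbroken run. Capitals mark the letters shared with H2-D1.

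H2-K1, chr17:34000377-34000498, minus strand: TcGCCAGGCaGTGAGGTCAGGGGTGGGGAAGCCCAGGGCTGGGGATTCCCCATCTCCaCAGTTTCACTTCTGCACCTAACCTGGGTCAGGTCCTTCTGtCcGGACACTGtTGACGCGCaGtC

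Tap1, a subunit of the transporter that feeds peptides to class I molecules (chromosome 17, 34187553 to 34197225, plus strand), was 46.9, 96.8, 54.9, 83.9 and 84.6 in HT1 to HT5 and 55.3, 48.2, 44.6, 83.0 and 57.1 in WT1 to WT5. HT2, HT4 and HT5 lay above every WT mouse, WT4 lay just below them, and HT1 and HT3 lay among the lower WT mice. Means were 73.4 ± 21.4 and 57.65 ± 15.1 (SD, n = 5 each), with a log2 fold change of 0.33 (SE 0.22, 95% interval -0.16 to 0.81, limma adjusted p 0.638). Without HT2 and HT5 together the value was 0.09, and without HT1 it was 0.47 (limma unadjusted p 0.0465). Tap1 overlaps Psmb9 on the opposite strand, a gene with a mean of only 15.1. H2-K1, Tap1 and H2-D1 lie on the same chromosome as Arid1b, with starts 29.0, 29.2 and 30.3 Mb from its start.

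The antiviral effectors of the group were Ifit2, Ifitm3 and Bst2. Ifit2, an interferon-induced RNA-binding protein (chromosome 19, 34550694 to 34576419, plus strand), was 291, 299, 294, 339 and 332.5 in HT1 to HT5 and 290.3, 312, 273, 336 and 301 in WT1 to WT5. The groups lay side by side over nearly the same range. Means were 311 ± 22.9 and 302 ± 23.5 (SD, n = 5 each), and the difference of 0.04 (SE 0.08) had a 95% interval of -0.13 to 0.21 (limma adjusted p 0.886).

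Ifitm3, a membrane protein that hinders the entry of viruses (chromosome 7, 141009586 to 141010770, minus strand), was 122, 194, 145, 121 and 281 in HT1 to HT5 and 155, 158, 134, 101.5 and 140.4 in WT1 to WT5. HT5 and HT2 lay above every WT mouse, and the other 3 HT mice lay within the WT range. With means of 173 ± 67.6 and 138 ± 22.6 (SD, n = 5 each), its log2 fold change of 0.26 (SE 0.21) had a wide interval, -0.20 to 0.72 (limma adjusted p 0.688). The direction rested on HT2 and HT5, since without HT5 it was 0.07 and without both it was -0.08. Of its 31-base words 20.5% occur in other genes.

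Bst2, or tetherin, which holds budding virus particles at the cell surface (chromosome 8, 71534255 to 71537456, minus strand), was 37.9, 56.8, 44.0, 60.1 and 73.5 in HT1 to HT5 and 49.8, 50.8, 55.7, 58.7 and 48.3 in WT1 to WT5. The WT mice all lay within the HT range, which reached below and above them. Means were 54.5 ± 14.0 and 52.7 ± 4.39 (SD, n = 5 each), and the log2 fold change of 0.01 (SE 0.18, 95% interval -0.38 to 0.41, limma adjusted p 0.985) had no stable sign. It became negative on leaving out HT2, HT4, HT5, WT1 or WT5, with -0.10 without HT5 as the lowest.

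The HT mice were more variable than the WT mice in most of these genes. On the log2 scale the SD was larger in HT for 8 of the 9 genes, Ifit2 being the exception, with a median ratio of 1.56, while over all 16781 genes tested it was larger in HT for 59.1%, with a median ratio of 1.14. Bst2 had an SD of 0.37 in HT and 0.12 in WT, H2-D1 0.16 and 0.05, and B2m 0.14 and 0.03. The variances themselves were not tested.

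HT5 had the highest value of all 10 mice in 4 of the 9 genes and HT2 in 2, H2-K1 and Tap1. WT3 was the lowest in 3, H2-D1, Ifit2 and Tap1, HT1 in 2, Irf9 and Bst2, and WT4 in 2, H2-K1 and Ifitm3. The mean z-score of the 9 genes was 1.03 in HT5, 0.63 in HT2, 0.08 in HT4, -0.61 in HT1 and -0.67 in HT3, and between -0.27 and 0.03 in the WT mice. The microglia marker score, built in the same way from 18 genes, was 1.47 in HT5, 1.53 in HT2, 0.03 in HT4, -0.29 in HT1 and -0.77 in HT3, and -0.96 to -0.11 in WT. Of the 18 microglia markers 18 were higher in HT on average, 4 at a limma unadjusted p under 0.05 (22.2%, against 9.23% of all genes) and 0 after adjustment, and with HT2 and HT5 left out 9 were higher and 9 lower, 0 of them at that p. The 3 with the smallest p were Trem2 at 0.45, Ctss at 0.31 and C1qb at 0.26, and HT5 was the highest mouse in each. The same 2 mice were thus at the top of both scores, and the part of microglia in the values of the 9 genes was not tested.

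Scores of other resident cell types varied among the HT mice as well. Astrocyte scores were 1.503 in HT2, 1.24 in HT5 and 0.43 in HT4, against -1.05 to 0.06 in WT. Endothelial scores were 1.83 in HT2, 0.48 in HT4 and 0.42 in HT5, against -0.65 to 0.20 in WT, and those of meningeal fibroblasts were 0.70, 0.66 and 1.23 in the same order, against -0.40 to 0.30, so HT4 lay above HT5 in the endothelial list. Mural cell scores were 1.352 in HT2, 0.84 in HT4 and 0.571 in HT5. HT1 and HT3 had scores below 0 in the astrocyte, endothelial and meningeal lists. Astrocyte markers were higher in HT in 12 of 12 cases, 7 at a limma unadjusted p under 0.05 (58.3%), and mural cell markers in 10 of 10, 3 at that p (30.0%), against 9.23% of all genes, with 0 in either list after adjustment. The astrocyte markers with the smallest p were Fgfr3 at 0.21, Aldoc at 0.27 and Ntsr2 at 0.30, and the 3 mural ones were Acta2 at 0.395, Myh11 at 0.45 and Cspg4 at 0.18, the last also the 1 oligodendrocyte-lineage marker at that p. In the other 8 mice, where 6.02% of all genes were at that p, 10 of 12 astrocyte markers, 2 at that p, and 8 of 10 mural cell markers, 0 at that p, were higher. Endothelial markers went from 13 of 16 higher to 7 of 16 in those 8 mice, with 1 lower at that p. Meningeal fibroblast markers went from 6 of 10 to 2 of 10, with 4 lower at that p. Over all 10 mice, oligodendrocyte-lineage markers were higher in 11 of 11, 1 at that p, with a median of 0.29. With HT2 and HT5 left out 9 of 11 were higher, 2 at that p, with a median of 0.33. HT5 had the lowest sum of them among HT mice, 70259 against 87664 to 97112. Border macrophage markers were higher in 3 of 7 and lower in 4, and with HT2 and HT5 left out 0 were higher and 7 lower, with a median of -0.23. Their sums were 439.9 to 935 in HT and 527 to 785 in WT. Of 16 blood and leukocyte markers 9 had a row, and their sum was 6726 to 9587 in HT and 7145 to 11496 in WT. Most of the sum came from haemoglobin chains, so it says little about leukocytes. Hbb-bs and Hba-a2 averaged 3035 and 2390 in HT and 3762 and 2719 in WT. Of the 7 tested 2 were higher and 5 lower, 1 at that p, Hbb-bs, a haemoglobin chain, at -0.30, and without HT2 and HT5 1 was higher, also at that p, and 6 lower, 4 at that p, with a median of -0.33. The B cell marker Cd79a and the neutrophil marker S100a9 averaged 5.74 and 5.68 over the 10 mice, too low to be tested. The part of these cells in the values of the 9 genes was not tested.

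**Figure D4:**
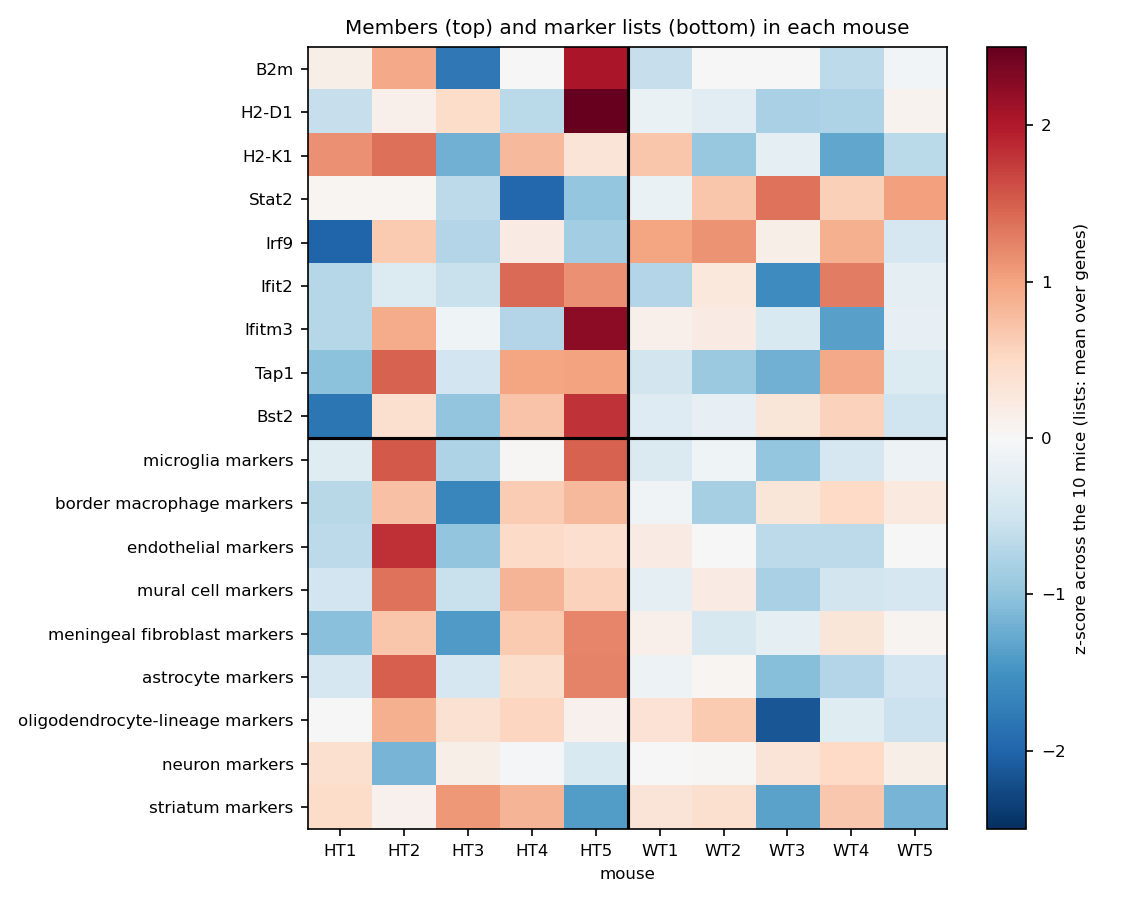
Z-score across the 10 mice (colour; red high, blue low) of each of the 9 genes (top rows) and mean z-score of each marker list (bottom rows), with HT left and WT right of the vertical line. HT5 is red in most of the 9 genes and in the microglia and astrocyte rows, while Stat2 is blue in HT4 and HT5.

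The mice did not order alike in all 9 genes. Over the 36 pairs of members, Pearson correlations of the deviations from the genotype means ran from -0.59 to 0.87 with a median of 0.16, 27 above 0. H2-D1 and Ifitm3 were closest (0.87), followed by Tap1 and Bst2 (0.74) and Ifit2 and Tap1 (0.69), and Stat2 and Ifit2 were the farthest apart (-0.59). The heavy chains H2-D1 and H2-K1 had a correlation of -0.20, while B2m had 0.51 with H2-D1 and 0.46 with H2-K1. These values are over 10 mice that share their libraries and are descriptions.

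By the same measure, the genes most like the mean of the 9 among 13879 others with a mean of at least 50 were Col1a1 (0.97), a fibrillar collagen chain, Pgghg (0.97), Aqp4 (0.97), the astrocyte water channel, Selenop (0.965), a carrier of selenium, Plcb3 (0.96), Itih5 (0.96), Itgb5 (0.96) and Akr1b10 (0.96). For single members the 2 most alike were Ptprc (0.975), the pan-leukocyte marker CD45, and Sash3 (0.96) for B2m, Lins1 (0.93) and Naglu (0.91) for H2-D1, Fgf13 (0.92) and Rpl31 (0.91) for H2-K1, and Qtrt1 (0.95) and Col6a4 (0.935) for Stat2. Irf9 was most like Wnk1 (0.97) and Dennd4c (0.94), Ifit2 like Dse (0.92) and Pdxdc1 (0.91), Ifitm3 like AC124169.1 (0.98) and Mybpc1 (0.96), Tap1 like Tbc1d12 (0.965) and Abcb10 (0.96), and Bst2 like Tmem219 (0.98) and Pycard (0.97), the adaptor of inflammasomes. Values at the top of so many genes over 10 mice are high by selection.

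The wider pathway was read from lists of its genes, in order of role. Of 17 interferon genes, 0 had a row in the table. Of 18 tested genes of interferon receptors and signalling, Stat2 and Irf9 included, 10 were higher and 8 lower in HT, with a median of 0.06, and 0 passed limma adjustment. At a limma unadjusted p under 0.05 there were 2 higher, Irf1 and Ifnar1, and 2 lower, Stat2 and Ifngr2 (22.2%, against 9.23% of all genes). They were 7 higher and 11 lower without HT2 and HT5, with a median of -0.03, and at that p 0 were then higher and 2, Stat2 and Irf9, lower, so Irf1, Ifnar1 and Ifngr2 were no longer past it. Irf1, an activator of MHC class I genes, was 88.2, 157, 104, 117 and 125 in HT1 to HT5 and 108.5, 86.2, 91.7, 81.8 and 79.5 in WT1 to WT5, with HT2, HT4 and HT5 above every WT mouse. Its log2 fold change was 0.38 (SE 0.15, limma adjusted p 0.51). Ifnar1, a chain of the type I interferon receptor, differed by 0.11 (SE 0.05, limma adjusted p 0.514), and Ifngr2, a chain of the interferon gamma receptor, by -0.18 (SE 0.07, limma adjusted p 0.51). Jak1, the most abundant of the list per kilobase with Ifngr2, was at 4721 to 5534 in HT and 5253 to 5927 in WT.

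Sensors that start interferon production gave 11 of 16 higher, 2 of them at a limma unadjusted p under 0.05 (12.5%, against 9.23% of all genes) and 0 after adjustment. Neither of these, Tlr7 and Aim2, was past that p without HT2 and HT5. Tlr7, a sensor of single-stranded RNA, was 107 to 165 in HT and 65.9 to 140 in WT, a difference of 0.55 (SE 0.20, limma adjusted p 0.482), and Aim2, a sensor of cytosolic DNA, was 56.4 to 80.7 against 38.2 to 64.8, a difference of 0.47 (SE 0.17, limma adjusted p 0.492). In both genes each HT mouse exceeded the mean of the WT mice. Among 18 brakes on interferon signalling 10 were higher, 3 at that p (16.7%, against 9.23% of all genes) and 0 after limma adjustment. These were Socs3, an inhibitor of cytokine receptors, at 0.64 (SE 0.20, limma adjusted p 0.456), Ptpn6, a phosphatase of blood cells and microglia, at 0.30 and Rnaseh2c, a subunit of the enzyme that removes RNA from DNA, at 0.28. Socs3 was 64.7, 81.6, 80.8, 71.3 and 138.5 in HT1 to HT5 and 52.5, 68.3, 48.5, 53.2 and 47.4 in WT1 to WT5, so that HT1 alone fell below the highest WT mouse. The most abundant per kilobase were the adaptor Traf3 and the kinase Tbk1 among the sensors, at 0.04 and -0.06, and the phosphatase Ptpn11 and the RNA-editing enzyme Adar among the brakes, at 0.02 and -0.06. Without HT2 and HT5 together, 4 of the 16 sensors were higher, 0 at that p, and 9 of the 18 brakes, 1 at that p.

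**Figure D5:**
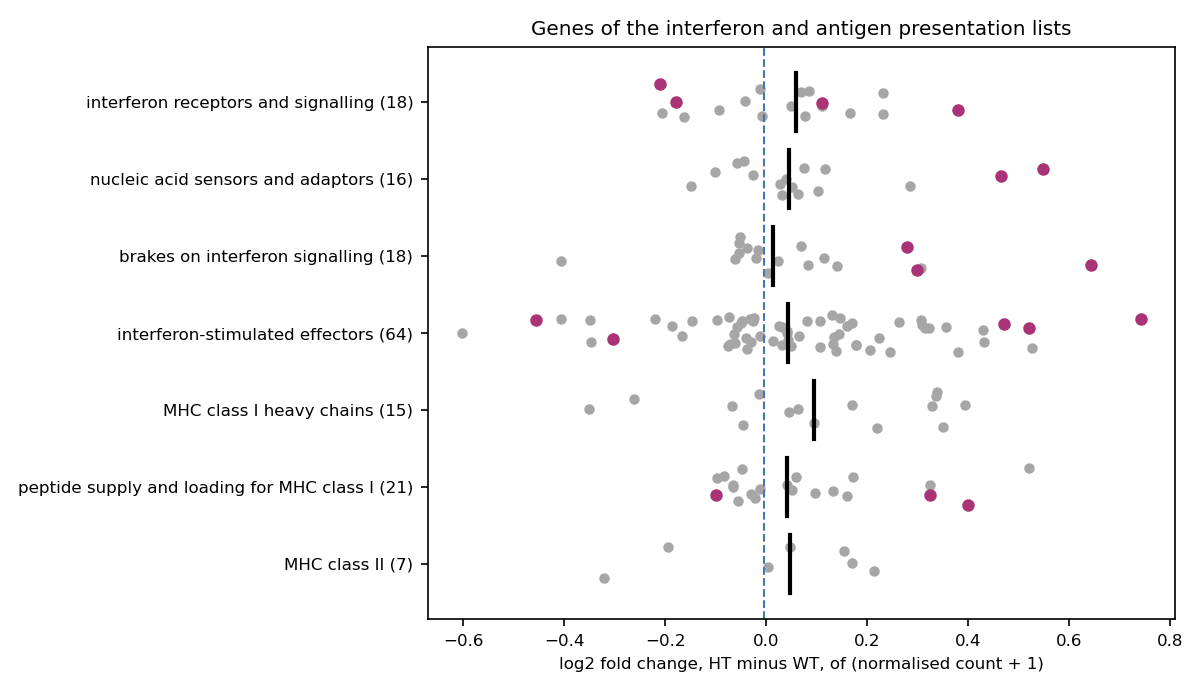
Log2 fold change, HT minus WT, of each tested gene (points; x axis) in 7 lists, with the number of genes tested in brackets. Purple points have a limma unadjusted p under 0.05, black bars are list medians and the dashed line is the median of all genes; points lie on both sides of 0 in every list, and the medians lie between 0.01 and 0.10.

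Interferon-stimulated effectors were the longest list, with 64 genes tested of 74 listed. Of these 38 were higher and 26 lower, with a median of 0.04, and 5 had a limma unadjusted p under 0.05 (7.81%, against 9.23% of all genes), 0 after adjustment. Higher were Mx1, an antiviral GTPase, at 0.74 (SE 0.28, limma adjusted p 0.496), Xaf1, at 0.52, and Sp100, a nuclear body protein. Lower were Shisa5 at -0.30 (SE 0.08, limma adjusted p 0.414) and Ifit1bl1, a relative of Ifit1, at -0.46 (SE 0.14, limma adjusted p 0.473). Shisa5, a membrane protein linked to cell death, was 857 to 1064 in HT and 1085 to 1399 in WT, the groups not overlapping. Mx1 was near the lower limit of what was tested, at 10.9 to 24.6 in HT and 9.16 to 17.4 in WT. The most abundant effectors per kilobase were Ly6e, a surface protein, at 3958 to 4820 in HT and 4224 to 4807 in WT, a difference of -0.05, and Adar. With HT2 and HT5 left out the list read the other way, 18 higher and 46 lower with a median of -0.10 and with 0 higher and 3 lower at that p, while over all genes 8301 were higher and 8480 lower. HT2 and HT5 had the highest mean z-scores of this list, 0.69 and 0.79, so a fall was set by the choice of mice.

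In antigen presentation, 15 class I heavy chains and relatives were tested, 10 higher and 5 lower with a median of 0.10, and 0 at a limma unadjusted p under 0.05. This list read 7 higher and 8 lower without HT2 and HT5, with a median of -0.0092. Fcgrt, the neonatal Fc receptor and after H2-D1 the most abundant of them per kilobase, was 302.5 to 455 in HT and 295 to 354 in WT, a difference of 0.17. Of 21 genes of peptide supply and loading, B2m and Tap1 included, 11 were higher and 10 lower, with 2 higher and 1 lower at an unadjusted p under 0.05 (14.3%, against 9.23% of all genes) and 0 after limma adjustment. In the 8 mice without HT2 and HT5, 8 were higher and 13 lower, with 1 higher and 1 lower at that unadjusted p, against 6.02% of all genes. Psme2, a proteasome activator subunit, was 265, 329, 313, 327 and 317 in HT1 to HT5 and 225, 244, 216.5, 266 and 289.5 in WT1 to WT5, with 4 of 5 HT mice above every WT mouse. Its difference was 0.32 (SE 0.10, limma adjusted p 0.455). Tap2, the partner of Tap1 in the transporter, was 96.8, 154, 124.5, 119.6 and 165.6 in HT1 to HT5 and 119.4, 95.6, 89.6, 84.4 and 105.3 in WT1 to WT5, a difference of 0.40 (SE 0.15, limma adjusted p 0.5). Sec61a1, the protein-conducting channel of the endoplasmic reticulum, was 2950 to 3039 in HT and 3076 to 3237 in WT without overlap, a difference of -0.10 (SE 0.04, limma adjusted p 0.482). The chaperones Calr and Canx, the most abundant of the list, differed by -0.03 and -0.01.

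MHC class II genes, which mark professional antigen-presenting cells, gave 5 of 7 higher and 2 lower, 0 at a limma unadjusted p under 0.05. Without HT2 and HT5 they gave 2 higher and 5 lower, 1 of the lower at that p, with a median of -0.12. Of all genes 6.02% were then at that p. H2-DMa, a chain of the peptide exchange factor and the most abundant of them per kilobase, was 420.7, 353.8, 391.8, 418.3 and 421.0 in HT1 to HT5 and 351.4, 327.7, 388.6, 439.8 and 442.0 in WT1 to WT5, a difference of 0.05 with WT5 highest. Cd74, the invariant chain, was 62.0, 92.4, 68.8, 57.9 and 112 in HT1 to HT5 and 53.4, 62.6, 59.8, 85.3 and 87.1 in WT1 to WT5. From the list of receptors 2 genes were tested. Lrp1, a large endocytic receptor, was 16055 to 19769 in HT and 15892 to 18825 in WT, and Lilrb4a, an inhibitory receptor of myeloid cells, was 76.4 in HT5 and at most 17.0 in the other 9 mice.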

How the data were processed

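RNA-Seq was measured in the prefrontal cortex of 10 male mice, 5 HT and 5 WT, grouped by sample title. Libraries were poly-A selected, stranded and paired-end. The authors estimated transcript abundance with Salmon 1.1.0 on GRCm38, summed it to genes with tximport and divided it by DESeq2 1.30.1 size factors, so the deposited values are a normalised signal. Only 6.4% to 21.2% of values under 20 were whole multiples of the best step of their library (within 0.02 of a step), so the sequencing depth is unknown, no count model was used, and precision comes from the spread between mice. Scaling by size factors hides any change in total RNA. The lowest row total of the table was 41.7; how low rows were treated is not given in the sources used here.

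Values were transformed as log2(value + 1). Genes averaging 10 or more (16781) were fitted with limma 3.58.1 in R 4.3.3 (genotype only, mean-variance trend) and adjusted by Benjamini-Hochberg over all of them at 0.05. The limma fit was tested on simulated data. Exact permutation used every assignment of 5 of the 10 mice. Positions are from GENCODE M21, in which 18205 of 18216 genes were found, and promoter windows from RefSeq. Python 3.11.15 was used otherwise. The members, the gene lists and the alternatives were chosen with earlier results of these data known. Genes named beside the members were those with an unadjusted p under 0.05 (at most 4 a list) and the 2 most abundant per kilobase in each pathway list, up to 3 with such a p in the cell-type lists that are described, and those most like the members. Sp100 was named outside this rule after its values were seen.

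Nothing in the labels says that same-numbered mice are related. The fit was repeated with pseudocounts of 0.5 or 10, without a filter or with one at a mean of 50, with upper-quartile or quantile scaling, without the trend, with sample weights, with a replicate block, by exact permutation, at an adjusted p under 0.1, without each mouse, and without HT2 and HT5. List counts and class I sums without HT2 and HT5 were added after seeing the data. No matching WT mice were left out, so these values are descriptions.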

Additional observations from a re-analysis of the deposited data

Results flagged for a closer look

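Within each genotype, 68 groups of 5 values (members, sums of the lists) were examined for a mouse set far apart, measured as its distance from the closest other mouse relative to the full range of the 5. In 3 groups this ratio exceeded the critical value of 0.71, where about 3.4 are given by chance. The summed brakes on interferon signalling in HT had a ratio of 0.746, with HT3 highest at 18941 against 18359 to 18507. The summed MHC class II genes in HT had a ratio of 0.712, with HT5 highest at 716 against 564.5 to 608. The summed neuron markers in HT had a ratio of 0.714, with HT2 lowest at 212335 against 248884 to 263551. None of the 9 genes was among them.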

How the results depend on the processing

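The number of members past the adjusted threshold was 0 in every alternative run, and 3 or 4 genes passed it in every limma alternative, the same 3 among them each time. By exact permutation 0 of 16781 genes passed, 1472 having an unadjusted p under 0.05, and the smallest adjusted p was 0.49. Arid1b kept its direction throughout, at -0.61 to -0.56 when single mice were left out. Its value of -0.59 had an exact permutation adjusted p of 0.49, the lowest that test could give here, since its unadjusted p of 0.00794 is the smallest possible.

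H2-D1, H2-K1, Stat2, Irf9, Ifit2 and Tap1 kept their direction in every alternative. Some came close to 0, with Ifit2 at 0.005 without WT3 and H2-D1 at 0.015 without HT2 and HT5. Over the single mice left out, Ifit2 reached 0.08 at most. Bst2 reversed with quantile normalisation (-0.048), with sample weights (-0.025), without HT2 and HT5 (-0.17) and without any 1 of 5 single mice, over a range of -0.10 to 0.13. Without HT2 and HT5 together B2m (-0.028) and Ifitm3 (-0.078) reversed as well. The number of members with an unadjusted p under 0.05 was 1 to 2 over the single mice left out, and 2 with quantile normalisation, with sample weights and without HT2 and HT5. Besides Stat2 the second was Irf9 in those 3 and without HT2, HT4 or WT5, H2-K1 without HT3 or WT1, and Tap1 without HT1. The cause was not tested. Over the single mice left out, Stat2 ran from -0.24 to -0.16, Irf9 from -0.26 to -0.14 and H2-K1 from 0.26 to 0.49.

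With the replicate number as a block, the same 3 genes and 0 members passed, Stat2 had a limma adjusted p of 0.502, and the block changed no call. Same-numbered mice had a mean correlation of 0.04, against -0.01 for other pairs, with 1 of 5 pairs over 0.1, so they were not treated as paired, although 3 of 5 HT mice correlated best with the WT mouse of their own number. The labels do not say what the number marks.

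A group size of 5 mice and an unknown depth limit these values. The 95% intervals leave room for differences of up to 0.81 on the log2 scale for Tap1 and 0.72 for Ifitm3, and a gene's share of reads from each cell type cannot be read from bulk tissue.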
